A study of Mus musculus with 10 samples.

Results

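The comparison described here sets H3.3 KO mESCs rescued with L126A-I130A H3.3 (H3.3 KO;L126A-I130A) against those rescued with the WT histone (H3.3 KO;WT), across all genes measured. The 4 libraries were chosen by the line named in their labels, 2 biological replicates a line, out of 10 polyA RNA-Seq libraries of 5 mESC lines, and the 2 libraries of the untransduced H3.3 KO line are given as the level before transduction. All 6 libraries come from 1 mESC background of mixed strain 129 x C57BL/6J, grown without feeders on gelatin in 2i+LIF medium, which contains the GSK3 inhibitor CHIR99021 at 3 µM and the MEK inhibitor PD0325901 at 1 µM. Both transgenes carry a FLAG-HA tag, are driven by the EF1 promoter of a lentiviral vector and were selected with puromycin, so the lines differ in the transgene and in having been transduced and selected separately. Whether the replicates were separate transductions or separate cultures of 1 transduced line is not stated, so p-values measure only the spread between these libraries. The labels spell the mutant L126A-L130A, and the study's text L126A-I130A.

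H3.3 is the replacement histone H3 that is placed in chromatin independently of replication, by HIRA at active genes and by ATRX and DAXX at heterochromatin and repeats. It is encoded by H3f3a and H3f3b. The residues changed in the mutant lie in the interface between the H3 molecules of a nucleosome, and the study designed the mutant to be bound by DAXX but not held in chromatin. The study used the mutant to separate the deposition of H3.3 from its presence. In mouse embryonic fibroblasts, the study found far less of the mutant than of the WT histone in whole cells. Deposition, the amount of H3.3 and the separate transduction of the lines therefore cannot be told apart in this comparison.

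The changed positions are shown in the mouse coding sequences, since the comparison turns on them. The stretches below run from residue 123 to residue 132, counted without the first methionine, in the GENCODE transcripts, with the codons of the residues changed in L126A and I130A in capitals. The codons used in the transgene are not given in the sources used here.
H3f3a: gatatccagCTAgcacgccgcATAcgcgga
H3f3b: gacatccagTTGgctcgccggATAcggggg

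The 4 libraries held between 15463625 and 17620426 expected counts, and levels are given as CPM, counts scaled to a common effective library size. Differential expression was tested over 13201 genes by edgeR's quasi-likelihood test, fitted to all 10 libraries at once. The fit thus included Daxx knockout mESCs and Daxx knockout mESCs rescued with a WT Daxx transgene, whose replicates share in setting the spread. The standard deviation of the log2 difference between replicates was 0.628 and 0.395 in these lines. It was 0.372 in H3.3 KO, 0.299 with WT H3.3 and 0.479 with the mutant. A gene was called differentially expressed (DE) where its adjusted p was under 0.05 and its change reached 2-fold. The defining markers of mESCs were abundant in both lines and none of the 8 was DE. Pou5f1 was at 1312 and 1237 CPM with WT H3.3 and at 1285 and 1136 CPM with the mutant, and Esrrb at 885 and 785 CPM and at 889 and 826 CPM. Nanog was at 913 and 952 CPM with WT H3.3 and, with the mutant, at 584 and 671 CPM, a log2 fold change of -0.57 that did not pass (adjusted p = 0.137). Markers of other cells were low, except Nes. Of 10 fibroblast or feeder markers, 7 had at most 10 counts in each of the 4 libraries, Dcn had 0 in all of them, and the summed level was between 11.3 and 14.6 CPM with WT H3.3 and between 7.08 and 12.8 CPM with the mutant. The 10 primitive endoderm markers summed to between 7.82 and 10.3 CPM in the 4 libraries. The 6 trophectoderm markers summed to 12.6 and 15 CPM with WT H3.3 and to 19.4 and 23.2 CPM with the mutant, and the 6 mesoderm and neuroectoderm markers to between 49 and 83.3 CPM. Most of the latter sum was Nes, with 1092 and 1187 counts with WT H3.3 and 609 and 1333 counts with the mutant. Of these 32 markers 14 were high enough to be tested, and 0 of the 14 were DE.

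The H3.3 genes were examined next, because the lines differ in an H3.3 transgene. H3f3a was listed at 3.62 and 4.36 CPM with WT H3.3 and at 5.26 and 2.85 CPM with the mutant. H3f3b was at 204 and 139 CPM with WT H3.3, at 386 and 324 CPM with the mutant and at 509 and 720 CPM in H3.3 KO. Both mutant libraries lay above both WT libraries, and the log2 fold change of 1.05 (standard error 0.25) did not pass (adjusted p = 0.123). Reads of the targeted allele and of a transgene are not told apart in counts per gene. The 12 clustered H3 genes, which encode replication-coupled H3, summed to 187 and 204 CPM in the WT H3.3 line, to 178 and 164 CPM in the mutant line and to only 16.1 and 22.8 CPM in H3.3 KO. Both rescued lines therefore stood apart from H3.3 KO in this sum and differed little from each other. The 51 clustered H1, H2A, H2B and H4 genes did not stand apart in this way. They summed to 306 and 247 CPM with WT H3.3, to 332 and 245 CPM with the mutant and to 337 and 266 CPM in H3.3 KO. Whether reads of the H3.3 transgenes were counted to clustered H3 genes was not tested. Hist1h3b was at 23.2 and 23.4 CPM with WT H3.3 and at 14.1 and 8.92 CPM with the mutant (log2 fold change -1.02, adjusted p = 0.277). Of the chaperone genes, Daxx was at 62.3 and 59.4 CPM with WT H3.3 and at 101 and 67.5 CPM with the mutant (log2 fold change 0.47, standard error 0.18, adjusted p = 0.34). The log2 fold changes of Atrx and Hira were 0.16 and 0.27, and neither passed (adjusted p = 0.852 and 0.815). None of 27 H3 chaperone genes was DE (median 0.18, range 0.06 to 0.29 with each of the 4 libraries left out in turn).

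Between the mutant and the WT H3.3 line, 68 of 13201 genes were DE (0.515%). With the mutant, 33 were higher (0.25% of the genes tested) and 35 lower (0.265%), with adjusted p between 0.00269 and 0.0486. The rises had a median log2 fold change of 1.58 and took place in genes of a median 18.3 CPM with WT H3.3. The falls were larger, with a median of -3.12, and 27 of the 35 exceeded 4-fold, in genes whose median level was 13 CPM in the WT H3.3 line and 1.22 CPM in the mutant line. In all 68 genes both mutant libraries lay beyond both WT libraries, a separation also seen upward in 22% and downward in 23.2% of all genes tested. The median log2 fold change of all genes was 0.0026.

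**Figure D1:**
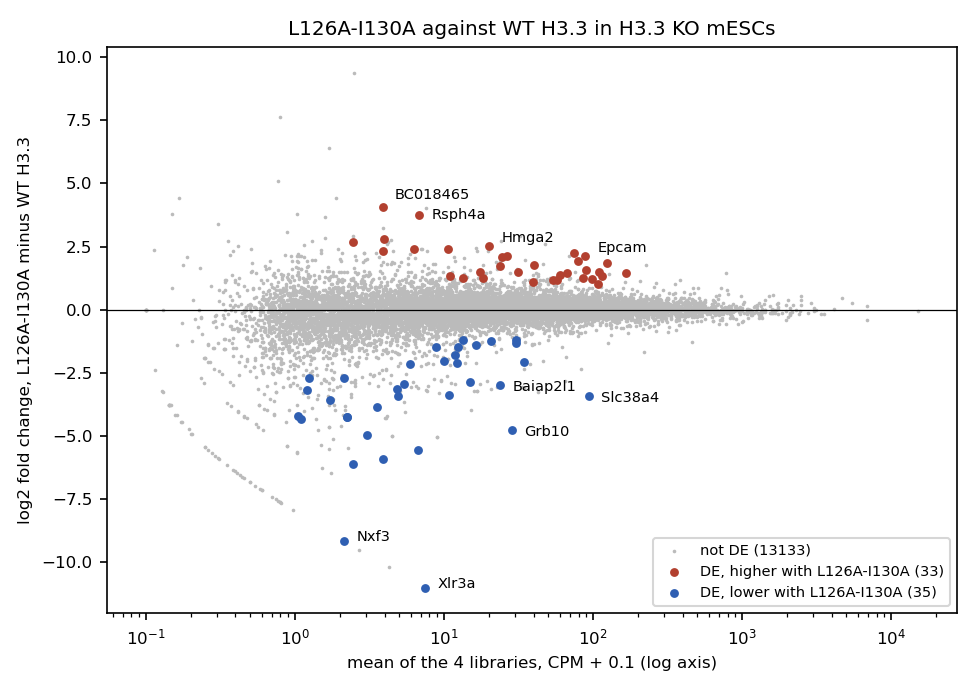
Log2 fold change of L126A-I130A minus WT H3.3 (vertical axis) against the mean level of the 4 libraries in CPM + 0.1 (log axis), 1 point a gene. The 33 DE rises lie between 1.01 and 4.05 and the 35 DE falls between -1.19 and -11; the curved row at the lower left holds genes without a count in the mutant libraries, whose fitted values are no measure of size.

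The number of calls rested on single libraries. Without replicate 1 of the mutant edgeR called 0 genes, with a smallest adjusted p of 0.103 and 908 genes at an unadjusted p under 0.05, against 1627 with all libraries. DESeq2 called 323 genes with all libraries and was not run without 1. Without replicate 1 of WT H3.3, Grb10 and Efhc2 were called, without replicate 2 of WT H3.3 only Grb10, and without replicate 2 of the mutant 64 genes, of which 31 were among the 68. All 68 genes kept their direction in each of these fits. Both mutant libraries lay beyond both WT libraries in every one, so leaving out 1 library could hardly reverse a direction. With library totals in place of median-of-ratios factors, 39 genes were DE, 23 higher and 16 lower, all of them among the 68. The medians of gene lists rested on single libraries as well. With each of the 4 libraries left out in turn, the median of 17 of the 46 lists changed sign, that of 27 others moved by over 1.5 times, and only those of the Xlr genes, as fitted, and of the ribosomal protein genes did neither. The range over these 4 fits is therefore given beside a median. The lists were chosen with earlier results of these data known. Shares of a list set beside those of all genes are therefore descriptive and no independent evidence of a direction.

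The level in H3.3 KO placed the rises and the falls differently. Of the 33 genes that were higher with the mutant, the H3.3 KO mean was nearer to the mutant in 27 (81.8%), while among all 6647 genes with a positive log2 fold change it was nearer to the mutant in 42.9%. Of the 35 genes that were lower with the mutant, the mean of H3.3 KO was nearer to WT H3.3 in 32 (91.4%), while among all 6547 genes with a negative log2 fold change this was 52.7%. Most rises were thus genes in which the WT H3.3 line lay below both other lines, and most falls were genes in which the mutant line lay below both other lines. The median difference of H3.3 KO from WT H3.3 was 1.23 in the rises and -0.20 in the falls, on the log2(CPM + 0.1) scale, and that of H3.3 KO from the mutant was -0.37 and 2.57. Peg12, Gm5622 and Chn1 were the 3 falls in which H3.3 KO was nearer to the mutant.

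**Figure D2:**
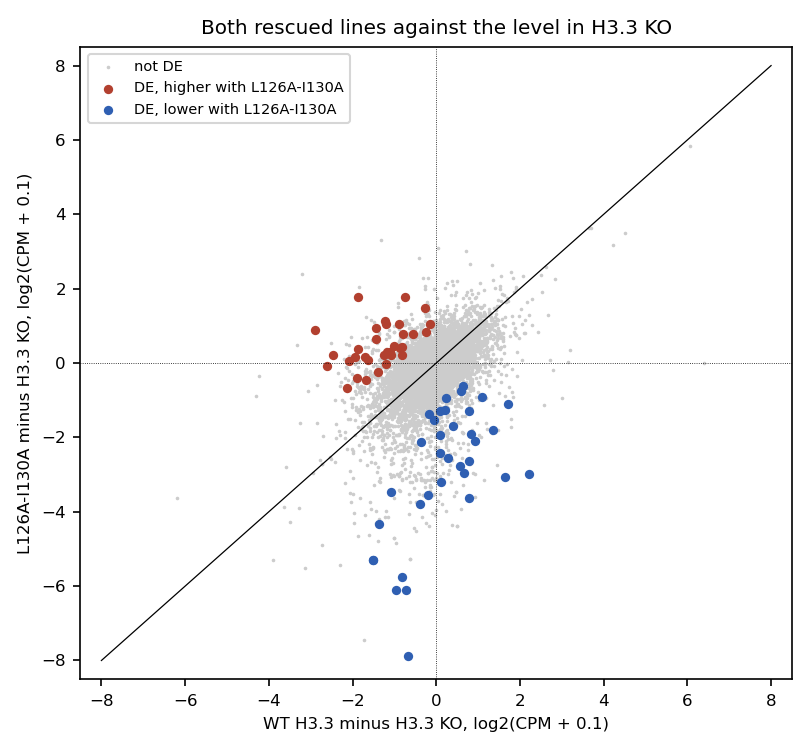
Difference of WT H3.3 (horizontal axis) and of L126A-I130A (vertical axis) from the mean level in H3.3 KO, in log2(CPM + 0.1), 1 point a gene, with the line of equal values. The rises lie mostly to the left near 0 on the vertical axis (27 of 33 nearer to the mutant), and the falls lie mostly below near 0 on the horizontal axis (32 of 35 nearer to WT).

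Of the 12 largest falls, 7 were in genes of the X chromosome, which held 499 of the 13085 tested genes with a chromosome. The 7 include the pair Dmrtc1c and Dmrtc1c2, which have identical counts, and the related copies Xlr3a and Xlr3b. Xlr3a, of a multicopy X-linked family related to the synaptonemal complex gene Sycp3, had 176 and 313 counts with WT H3.3 and 0 counts in both mutant libraries. It was at least 80.1-fold lower with the mutant, taken against a floor of 3 counts in each library (adjusted p = 0.0426), and was at 7.88 and 38.8 CPM in H3.3 KO. Its neighbour Xlr3b fell from 71 and 182 counts to 1 and 3, a ratio of 63.5 (95% counting interval 24.5 to 235; adjusted p = 0.0317). The counting could split reads between the copies, which was not tested. Their promoters are shown from 250 bases before to 50 bases after the start in RefSeq, in GRCm38.p6, with CpGs in capitals. Most of these bases lie before the start, so they do not show how reads were split. Xlr3a lies at chrX:73097046-73097345 on the minus strand and Xlr3b at chrX:73191929-73192228 on the plus strand.
Xlr3a: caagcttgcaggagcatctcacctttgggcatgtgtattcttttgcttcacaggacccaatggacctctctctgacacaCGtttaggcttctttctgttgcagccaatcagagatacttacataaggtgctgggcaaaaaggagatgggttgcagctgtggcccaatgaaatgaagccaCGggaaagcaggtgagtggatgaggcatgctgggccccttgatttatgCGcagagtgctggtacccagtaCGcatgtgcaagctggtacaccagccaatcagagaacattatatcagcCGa
Xlr3b: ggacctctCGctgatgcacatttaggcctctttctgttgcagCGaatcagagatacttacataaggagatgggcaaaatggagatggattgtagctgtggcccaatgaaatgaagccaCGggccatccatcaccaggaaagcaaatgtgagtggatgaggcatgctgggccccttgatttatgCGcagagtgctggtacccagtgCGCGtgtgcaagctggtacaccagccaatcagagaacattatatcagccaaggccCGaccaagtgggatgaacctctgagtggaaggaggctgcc
In a local alignment 223 of 237 aligned bases were identical (94.1%), beside 17 bases in gaps. The windows hold 5 and 7 CpGs, and the median over the 32851 promoters of the table is 7.

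Of the 10 tested Xlr genes 9 had a negative log2 fold change, 8 of them at an unadjusted p under 0.05, against 6.4% of all genes tested, and 2 were DE. In 6 of them both mutant libraries had 0 counts, and with these at their bound the median of the family was -2.63 (-6.48 as fitted, range -6.90 to -4.97). Xlr4a was at 0.826 and 2.67 CPM and Xlr4b at 0.953 and 1.63 CPM with WT H3.3, and both were at 0 CPM in the mutant libraries (adjusted p = 0.126 and 0.0743). The summed level of the family was 26.4 and 56.1 CPM in the WT H3.3 line, 8.63 and 4.11 CPM in the mutant line, and 25.6 and 88.3 CPM in H3.3 KO. Of the 15 tested Rhox genes, X-linked homeobox genes of the reproductive tract and placenta, none was DE. In 12 the log2 fold change was negative, and 3 had no counts in either line. The median was -2.60 as fitted (range -3.23 to 0, the latter without replicate 2 of WT H3.3). It was -0.56 with genes without counts at their bound. Rhox1 was at 1.72 and 2.44 CPM with WT H3.3 and at 0.202 and 0.219 CPM with the mutant (log2 fold change -3.26, adjusted p = 0.102). The Rhox genes summed to at most 14.9 CPM in any of the 4 libraries, so the depth limits what they show.

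Other falls on the X chromosome were Nxf3, Gm15107, Efhc2 and the pair Dmrtc1c and Dmrtc1c2. Nxf3, a testis member of the nuclear RNA export factors, had 61 and 74 counts with WT H3.3 and 0 in both mutant libraries, at least 22.3-fold lower (adjusted p = 0.0153). The counts of Gm15107 were 53 and 102 with WT H3.3 and 0 and 2 with the mutant, a ratio of 77.8 (95% counting interval 21.2 to 648; adjusted p = 0.0288). Efhc2, an EF-hand gene, was at 7.88 and 18.1 CPM with WT H3.3 and at 0.135 and 0.383 CPM with the mutant (log2 fold change -5.56, standard error 0.63, adjusted p = 0.0153). In all of these the mutant libraries lay far below WT H3.3 and H3.3 KO. Dmrtc1c and Dmrtc1c2 are listed with identical counts, so they stand for 1 measurement, and fell from 3.43 and 4.76 CPM to 0.135 and 0.274 CPM (log2 fold change -4.24, adjusted p = 0.0234). Together 8 of the 35 falls were on the X or Y chromosome (22.9%), or 7 of 34 with the identical pair counted once, while these chromosomes held 3.87% of the tested genes with a chromosome. Hmgn5, which encodes a nucleosome-binding protein, was the 1 X-linked gene that rose.

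**Figure D3:**
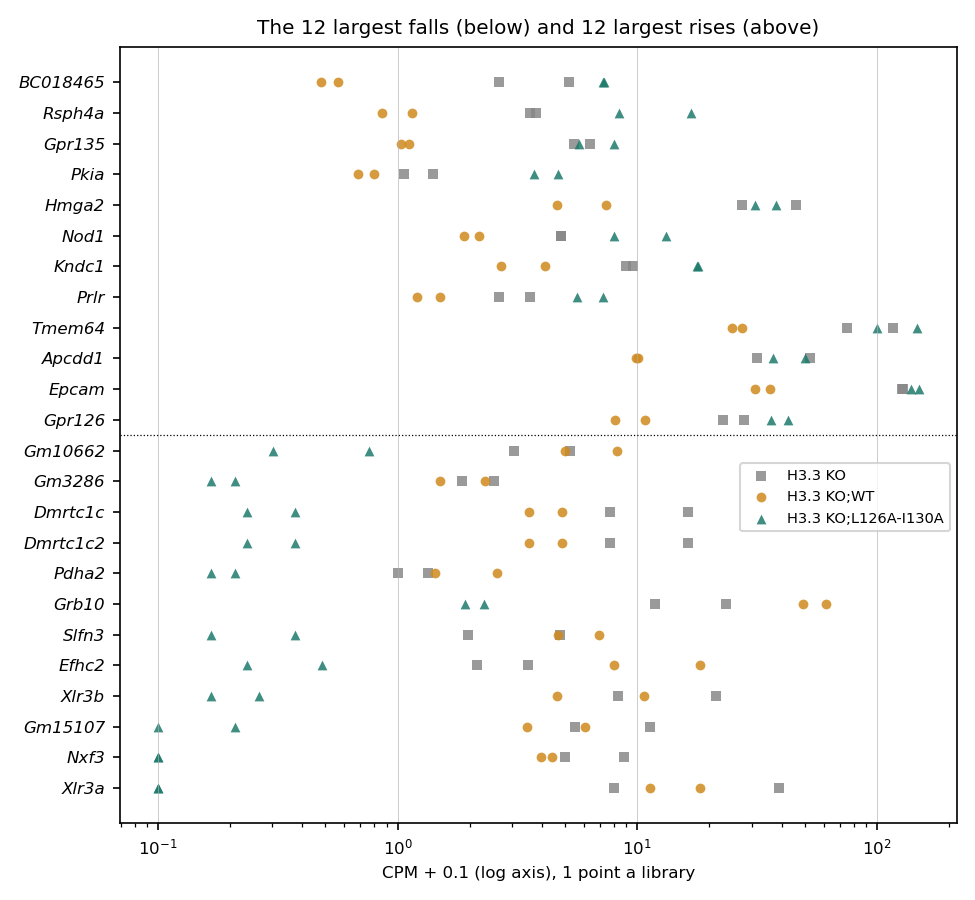
Level in CPM + 0.1 (log axis) of the 12 DE genes with the largest rises and the 12 with the largest falls, 1 point a library, for H3.3 KO (squares), H3.3 KO;WT (circles) and H3.3 KO;L126A-I130A (triangles). In the rises the circles lie to the left of both other lines, and in the falls the triangles do; Xlr3a and Nxf3 have 0 counts in both mutant libraries and are drawn at 0.1.

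Y-linked genes lay on both sides of WT H3.3, and are named after their values were seen. Ube1y1, a ubiquitin-activating enzyme gene, fell from 37.9 and 73.6 CPM to 13.1 and 13.9 CPM (log2 fold change -2.05, standard error 0.32, adjusted p = 0.0426). The other 6 tested Y-linked genes were not DE. Kdm5d was at 1.59 and 4.71 CPM with WT H3.3 and at 0.135 and 0 CPM with the mutant, while Ddx3y was at 90.1 and 118 CPM and at 255 and 194 CPM. Uty, which encodes a homologue of a histone demethylase, was at 26.1 and 27.9 CPM and at 74.4 and 48.8 CPM. The log2 fold changes ran from -5.52 for Kdm5d to 1.19 for Uty.

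Of 4 germline lists, 3 had medians below that of all genes, and 2 genes of the 4 lists were DE. Of 37 tested germline regulators, 34 had a negative log2 fold change and none was DE. At an unadjusted p under 0.05, 18 were lower, against 6.4% of all genes tested. The median was -1.18 (range -2.11, without replicate 2 of the mutant, to -0.90). It was -1.13 with genes without mutant counts at their bound. Stra8, the retinoic acid-induced regulator of meiotic entry, was at 3.62 and 5.05 CPM with WT H3.3, at 0 and 1.1 CPM with the mutant and at 14.7 and 17.5 CPM in H3.3 KO (adjusted p = 0.229). Ott, an X-linked ovary and testis transcript, was at 6.22 and 10.9 CPM with WT H3.3 and at 0 and 0.493 CPM with the mutant (adjusted p = 0.0629). These values separate the lines, but neither gene passed the test.

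Among 27 piRNA pathway and germ granule genes, which silence transposons in germ cells, 21 were negative (median -0.77, range -0.93 to -0.35, the latter without replicate 1 of the mutant) and Stk31 was DE. Stk31, a Tudor-domain kinase gene of the testis, was at 22.7 and 24.9 CPM with WT H3.3 and at 9.1 and 8.92 CPM with the mutant (log2 fold change -1.40, standard error 0.18, adjusted p = 0.0234), and at 21.5 and 23.2 CPM in H3.3 KO. Of 32 meiotic cohesin and synaptonemal complex genes 25 were negative (median -0.53) and none was DE, with a median of -0.18 without replicate 1 of the mutant and of -0.92 without replicate 2. Hormad2 was at 4.38 and 8.95 CPM and at 0.607 and 1.37 CPM (log2 fold change -2.72, adjusted p = 0.111). The 12 tested oocyte and maternal-effect genes were divided evenly by sign (median 0.06, range -0.12 to 0.30), and Nlrp4c, of an oocyte family of NLR proteins, fell from 2.99 and 4.07 CPM to 0.472 and 0.602 CPM (adjusted p = 0.0441). Other falls in genes of the testis were Pdha2, Naa11 and Psma8. Pdha2, the testis form of a pyruvate dehydrogenase subunit, had 21 and 43 counts with WT H3.3 and 1 and 2 with the mutant, a ratio of 21.4 (95% counting interval 7.01 to 107; adjusted p = 0.0486).

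The markers of the two-cell state, which a small share of mESCs expresses at any time, were lower as a group. All 30 tested markers had a negative log2 fold change, with a median of -2.92. In 29 both mutant libraries lay below both WT libraries, against 23.2% of all genes tested. At an unadjusted p under 0.05, 23 of the 30 were lower, against 6.4% of all genes tested, but only 1 was DE. Dub1, a deubiquitinating enzyme gene, fell from 20.6 and 31.5 CPM with WT H3.3 to 2.02 and 5.04 CPM (log2 fold change -2.87, standard error 0.44, adjusted p = 0.0392), and was at 19.6 and 23.2 CPM in H3.3 KO. The counting could split reads between Dub1 and its near copies Dub1a and Dub2a, and separately among the Zscan4 genes, which was not tested. Such copies are therefore not separate measurements. Gm428 was at 7.56 and 12.9 CPM with WT H3.3 and at 0.135 and 1.04 CPM with the mutant (adjusted p = 0.0903).

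The mean log2(CPM + 1) of these markers was 3.41 and 3.99 with WT H3.3, 3.41 and 4.13 in H3.3 KO, and 0.73 and 2.19 with the mutant. The mutant libraries were thus below the other 4, but also differed from each other by more than any other pair of replicates of these lines. Without replicate 1 of the mutant the median was -2.15, and without replicate 2 it was -6.04. In bulk libraries fewer cells in this state and less RNA in each cannot be told apart.

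**Figure D4:**
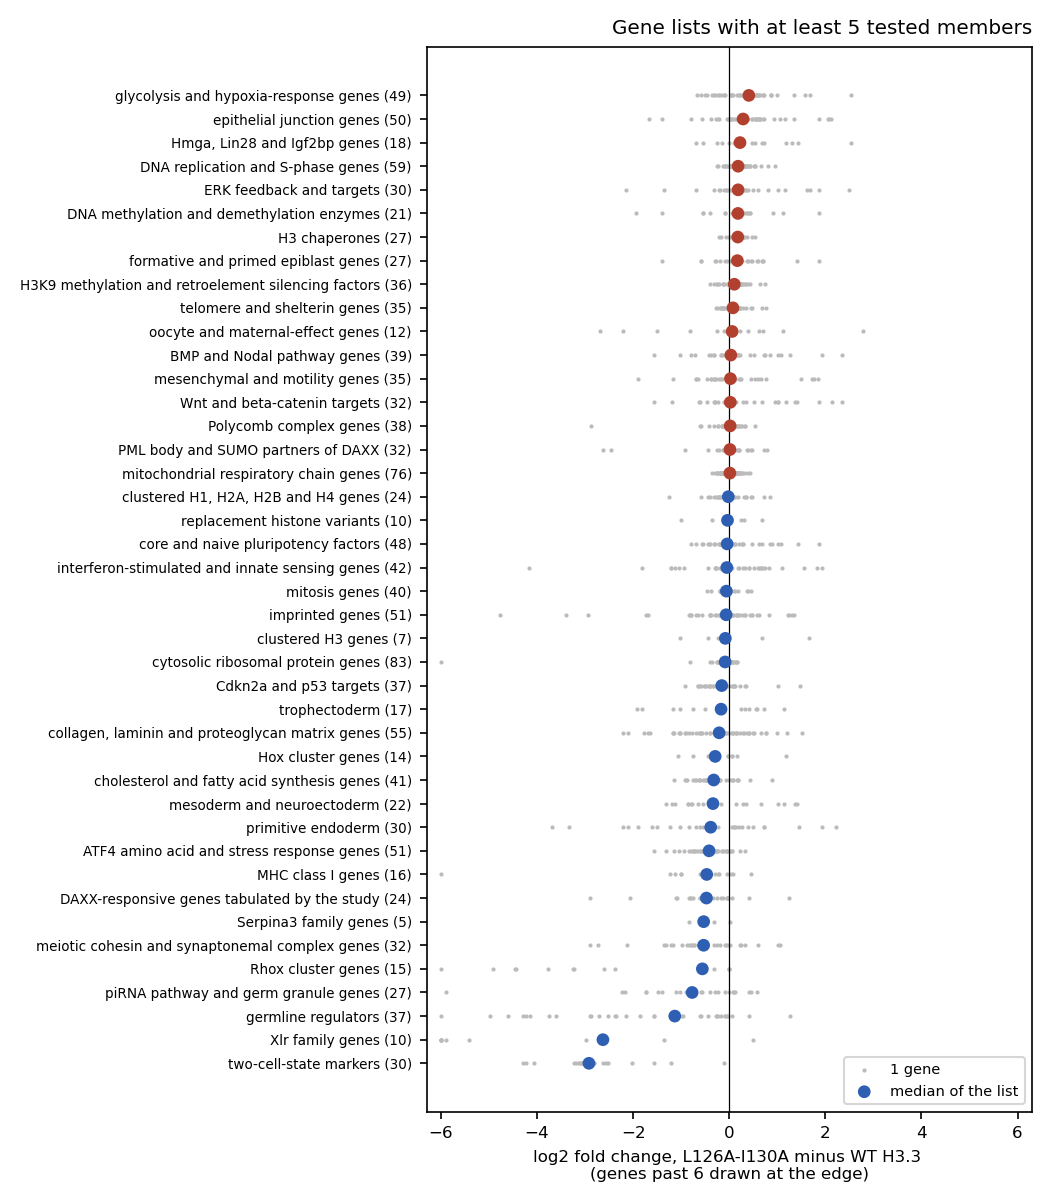
Log2 fold change of L126A-I130A minus WT H3.3 for the members of each gene list with at least 5 tested members (grey, 1 point a gene) and the median of the list (coloured), with genes that have no counts in a line at their bound in the median; numbers of tested genes are in parentheses. The two-cell-state markers (-2.92), Xlr genes (-2.63) and germline regulators (-1.13) lie lowest, and glycolysis and hypoxia-response genes (0.41, but 0.23 without replicate 2 of WT H3.3) highest.

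Imprinted genes, which are expressed from 1 parental allele, held 3 DE genes of 51 tested, all lower with the mutant. Among all genes tested 0.265% were DE and lower. Grb10, an adaptor that binds the insulin receptor, had the smallest p of all genes. It was at 49.2 and 60.9 CPM with WT H3.3, at 1.82 and 2.19 CPM with the mutant and at 11.7 and 23.3 CPM in H3.3 KO (log2 fold change -4.77, standard error 0.34, adjusted p = 0.00269). Slc38a4, an amino acid transporter gene, fell from 127 and 215 CPM to 5.73 and 26.3 CPM (log2 fold change -3.40, adjusted p = 0.0486), and was at 201 and 246 CPM in H3.3 KO. Peg12 fell from 9.02 and 9.64 CPM to 1.62 and 0.821 CPM (log2 fold change -2.94, adjusted p = 0.0317), and was at 2.72 and 2.8 CPM in H3.3 KO. The 3 genes thus differ in where H3.3 KO lay: near WT H3.3 for Slc38a4, near the mutant for Peg12 and between the lines for Grb10. The list as a whole was centred near 0, with a median of -0.06 (range -0.09 to 0.05), 21 genes positive and 30 negative.

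Among the rises were genes of epithelial junctions and of the Wnt pathway. Epcam, an epithelial cell adhesion molecule, was at 30.9 and 35.5 CPM with WT H3.3, at 149 and 138 CPM with the mutant and at a mean of 127 CPM in H3.3 KO (log2 fold change 2.12, standard error 0.23, adjusted p = 0.0153). Its promoter is shown as that of a rise of high level in which the WT line alone stood apart, at chr17:87635729-87636028 on the plus strand in GRCm38.p6, with its 11 CpGs in capitals.
Epcam: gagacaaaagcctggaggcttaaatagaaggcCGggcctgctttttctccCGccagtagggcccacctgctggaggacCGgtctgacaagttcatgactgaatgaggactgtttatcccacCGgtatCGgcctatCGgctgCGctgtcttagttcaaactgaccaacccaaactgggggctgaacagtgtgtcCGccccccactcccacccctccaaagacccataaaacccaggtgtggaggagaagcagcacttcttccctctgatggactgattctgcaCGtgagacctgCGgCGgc
It was the 1 DE gene of 50 tested epithelial junction genes, of which 39 had a positive log2 fold change (median 0.29, range 0.12 without replicate 2 of the mutant to 0.47 without replicate 1). Ap1m2, a subunit of an epithelial sorting adaptor, was at 3.75 and 5.17 CPM with WT H3.3 and at 15 and 22.6 CPM with the mutant, which separated the lines without passing (adjusted p = 0.257). Apcdd1, a membrane inhibitor of Wnt signalling, rose from 9.78 and 9.93 CPM to 50 and 36.6 CPM (log2 fold change 2.13, adjusted p = 0.0212), and was at 31.5 and 52.5 CPM in H3.3 KO. It was the 1 DE gene of 32 tested Wnt and beta-catenin targets, whose median was 0.02 (range -0.00 to 0.11).

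Hmga2, an architectural chromatin protein gene, rose from 4.51 and 7.32 CPM to 37.6 and 30.9 CPM (log2 fold change 2.53, standard error 0.33, adjusted p = 0.0234). Hmgn5 rose from 40 and 30 CPM to 85.8 and 71.7 CPM (log2 fold change 1.17, adjusted p = 0.0426), and both were near the mutant in H3.3 KO. With 18 genes tested, this list of Hmga, Lin28 and Igf2bp genes had a median of 0.22, which was -0.07 without replicate 1 of the mutant. Lin28a, which blocks let-7 maturation, was at 73.8 and 64 CPM with WT H3.3 and at 238 and 134 CPM with the mutant (adjusted p = 0.21). Eps8, a regulator of actin filaments, rose from 61.6 and 45.3 CPM to 215 and 170 CPM (log2 fold change 1.85, adjusted p = 0.0172), and was the 1 DE gene of 35 mesenchymal and motility genes (median 0.02, range -0.11 to 0.01).

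The largest rises by fold were BC018465 and Rsph4a, a radial spoke gene of motile cilia. BC018465 was at 0.381 and 0.465 CPM with WT H3.3 and at 7.08 and 7.17 CPM with the mutant (log2 fold change 4.05, standard error 0.61, adjusted p = 0.0368), and Rsph4a at 0.762 and 1.05 CPM and at 16.7 and 8.27 CPM (log2 fold change 3.77, standard error 0.61, adjusted p = 0.0426). Receptor genes among the 12 largest rises were Prlr, the prolactin receptor, Gpr126 and Gpr135. Gpr126, an adhesion receptor, rose from 7.94 and 10.6 CPM to 42.4 and 36.1 CPM (adjusted p = 0.0271), and Prlr from 1.4 and 1.1 CPM to 5.53 and 7.12 CPM (adjusted p = 0.0468). Nod1, an intracellular sensor of bacterial cell wall, rose from 2.1 and 1.8 CPM to 13.1 and 7.88 CPM (adjusted p = 0.0426). Tmem64 was the most abundant of them beside Epcam, at 27.3 and 24.7 CPM with WT H3.3 and at 147 and 100.3 CPM with the mutant (adjusted p = 0.0234). Pkia, an inhibitor of protein kinase A, was 1 of the 6 rises in which H3.3 KO lay nearer to WT H3.3, at 0.963 and 1.3 CPM (adjusted p = 0.0426). Pkia was at 0.699 and 0.581 CPM in the WT H3.3 line and at 4.59 and 3.61 CPM in the mutant line. Further rises included the phospholipid synthesis genes Cds2 and Lpcat1, the junction receptor Cxadr, the surface antigen Cd24a, and Sfn, Nefl and Rtn1.

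In the metabolic lists 1 gene was DE. Rragd, a Rag GTPase that signals amino acid supply to mTORC1, rose from 49.7 and 40.7 CPM to 127 and 143 CPM (log2 fold change 1.58, standard error 0.18, adjusted p = 0.0153). It belongs to the glycolysis and hypoxia-response list, of which 36 of 49 genes were positive, 11 of them at an unadjusted p under 0.05, against 5.92% of all genes tested, with a median of 0.41 that was 0.23 without replicate 2 of WT H3.3 and 0.30 without replicate 2 of the mutant. Egln3, a prolyl hydroxylase that acts on HIF, was at 4.32 and 5.64 CPM with WT H3.3 and at 15.9 and 16.2 CPM with the mutant, and at 9.12 and 2.3 CPM in H3.3 KO (adjusted p = 0.261). Of 51 genes of the ATF4 amino acid and stress response 45 were negative (median -0.42) and none was DE, and the median was -0.21 without replicate 1 of the mutant and -0.78 without replicate 2. Trib3 was at 78.1 and 61.3 CPM with WT H3.3 and at 31.8 and 48.4 CPM with the mutant (adjusted p = 0.162). Of 41 cholesterol and fatty acid synthesis genes 33 were negative (median -0.32, range -0.45 to -0.20). At an unadjusted p under 0.05, 15 were lower, against 6.4% of all genes tested. Hsd17b7 came nearest to the threshold, at 43.5 and 45.6 CPM and at 25.6 and 21.9 CPM (log2 fold change -0.91, adjusted p = 0.0524). The 76 respiratory chain genes had a median of 0.01 (range -0.08 to 0.11), and no member was at an unadjusted p under 0.05.

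Genes of cell growth and division shifted little. Of 59 DNA replication and S-phase genes 50 were positive, with a median of 0.18 (0.07 without replicate 1 of the mutant), and none was DE. At an unadjusted p under 0.05, 10 were higher, against 5.92% of all genes tested. Dut, which keeps uracil out of DNA, was at 139 and 128 CPM with WT H3.3 and at 270.0 and 199 CPM with the mutant (log2 fold change 0.81, adjusted p = 0.126). The 40 mitosis genes had a median of -0.06 (range -0.11 to 0.00) and the 83 cytosolic ribosomal protein genes of -0.09 (-0.10 to -0.07), with 71 of the latter negative. Rpl22l1, a paralogue of the ribosomal protein gene Rpl22, passed the test without reaching 2-fold, at 137 and 132 CPM and at 81 and 72.1 CPM (log2 fold change -0.81, adjusted p = 0.0448). Cdkn2a, the cell cycle inhibitor gene, was at 17.6 and 16.6 CPM with WT H3.3, at 8.43 and 9.63 CPM with the mutant and at 4.7 and 6.4 CPM in H3.3 KO (adjusted p = 0.107), in a list of 37 p53 and Cdkn2a targets with a median of -0.16 (range -0.28 to -0.10).

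Lists of chromatin regulators held no DE gene. The 36 factors of H3K9 methylation and retroelement silencing had a median of 0.11 (range 0.03 to 0.23), and the 21 DNA methylation and demethylation enzymes of 0.18 (0.18 to 0.34). The medians of the 38 Polycomb genes (0.02, range -0.05 to 0.04), the 35 telomere and shelterin genes (0.08, range 0.01 to 0.14) and the 32 PML body and SUMO partners of DAXX (0.01, range -0.06 to 0.13) lay close to 0. Ehmt2, an H3K9 methyltransferase, was at 92.2 and 100.4 CPM with WT H3.3 and at 187 and 136 CPM with the mutant (log2 fold change 0.74, adjusted p = 0.107). Scml2, a Polycomb gene of the germline on the X chromosome, was at 19.8 and 31 CPM and at 2.5 and 4.32 CPM (log2 fold change -2.88, adjusted p = 0.0629), and at 35.6 and 101.6 CPM in H3.3 KO. Tet3, a methylcytosine dioxygenase, was at 13.9 and 19.9 CPM and at 4.38 and 4.38 CPM (adjusted p = 0.0746), and Dnmt3b, a de novo methyltransferase, at 52.5 and 51 CPM and at 279 and 98.7 CPM (adjusted p = 0.143). Sp110 and Sp100, of the PML bodies, were at 4.13 and 7.15 CPM and at 3.24 and 2.61 CPM with WT H3.3, and at 0.539 and 1.26 CPM and at 0.202 and 0.821 CPM with the mutant (adjusted p = 0.0998 and 0.172). The 24 DAXX-responsive genes tabulated by the study had a median of -0.48 (range -0.997 without replicate 2 of the mutant to -0.26 without replicate 1). Of them 21 were negative, 3 at an unadjusted p under 0.05, against 6.4% of all genes tested, and none was DE. The study chose that list on these samples, so it is no independent evidence of a direction. The 7 clustered H3 genes tested had a median of -0.08 (range -0.22 to 0.09), and the 10 replacement histone variants of -0.04 (-0.06 to 0.02). The median of the 24 other clustered histone genes was -0.02, but -0.61 without replicate 1 of the mutant and 0.28 without replicate 2.

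Genes of signalling and lineage gave 1 further DE gene. Col4a1, a chain of basement membrane collagen IV, fell from 17 and 22.7 CPM to 3.98 and 5.2 CPM (log2 fold change -2.11, standard error 0.31, adjusted p = 0.0333), and Col4a2, its partner chain, was at 7.18 and 15.7 CPM and at 1.62 and 3.28 CPM (log2 fold change -2.21, adjusted p = 0.164). The median was -0.21 over 55 matrix genes, and 0.05 without replicate 1 of the mutant. It was -0.39 over 30 primitive endoderm genes (-0.11 without replicate 1 of the mutant and -0.79 without replicate 2). Over 48 pluripotency genes it was -0.04 (range -0.09 to 0.02), and over 27 formative and primed epiblast genes 0.17 (range 0.03 to 0.26). The ERK feedback list of 30 genes, in cells kept in a MEK inhibitor, had a median of 0.18, and of -0.03 without replicate 1 of the mutant. Spry4, a feedback inhibitor of ERK signalling, was at 7.69 and 4.12 CPM with WT H3.3 and at 53.7 and 13.1 CPM with the mutant (adjusted p = 0.27), and Bmp4 at 6.61 and 4.36 CPM and at 46.9 and 8.59 CPM (adjusted p = 0.172). In both the mutant replicates differed more than the WT replicates. The 42 interferon-stimulated and innate sensing genes had a median of -0.05 (range -0.10 to 0.09), and Ddx58, the viral RNA sensor RIG-I, was at 20.6 and 20 CPM and at 92.6 and 50.6 CPM (log2 fold change 1.82, adjusted p = 0.126). The 16 MHC class I genes had a median of -0.47, which was -0.10 without replicate 1 of the mutant and -0.999 without replicate 2. The median of 17 trophectoderm genes, -0.17, turned to 0.33 without replicate 1 of the mutant and was -0.89 without replicate 2. That of 22 mesoderm and neuroectoderm genes, -0.34 (range -0.43 to -0.11), turned to 0.34 over the members with a mean of at least 5 CPM. The other medians were 0.03 for 39 BMP and Nodal pathway genes (range 0.01 to 0.07), -0.29 for 14 Hox genes (-0.35 to -0.03), -0.53 for 5 Serpina3 genes (-0.79 to -0.27), -1.41 for 3 osteocalcin genes (-2.29 to -0.91) and -0.07 for 2 genes of the X inactivation centre (-0.17 to 0.05). Col4a1 belongs to both the matrix and the primitive endoderm list, and no other gene tested in the lists of this paragraph was DE.

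Whole chromosomes also differed between the lines. The median log2 fold change of the 598 tested genes on chromosome 6 was 0.18, with 68.2% positive, and that of the 1098 genes on chromosome 11 was -0.11, with 34.6% positive. On the other 17 autosomes the median lay between -0.03 and 0.03. Among genes of at least 5 CPM, the median on chromosome 6 was between 0.08 and 0.28 in the 4 pairings of a mutant with a WT library, and that on chromosome 11 between -0.19 and 0.00. H3.3 KO was above WT H3.3 by 0.21 and below the mutant by 0.02 on chromosome 6. On chromosome 11 H3.3 KO was above WT H3.3 by 0.31 and above the mutant by 0.40. On chromosome 16 it was above them by 0.26 and 0.23, and the median of the mutant minus WT H3.3 was 0.02. Chromosome 6 held 2 of the rises, Eps8 and Nod1, and 1 of the falls, Stk31, and chromosome 11 held 5 falls, which were Grb10, Stk10, Adora2b, Asgr2 and Slfn3. Each of these 8 changed by at least 1.21 on the log2 scale, and the part of the chromosome-wide differences in them was not tested.

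**Figure D5:**
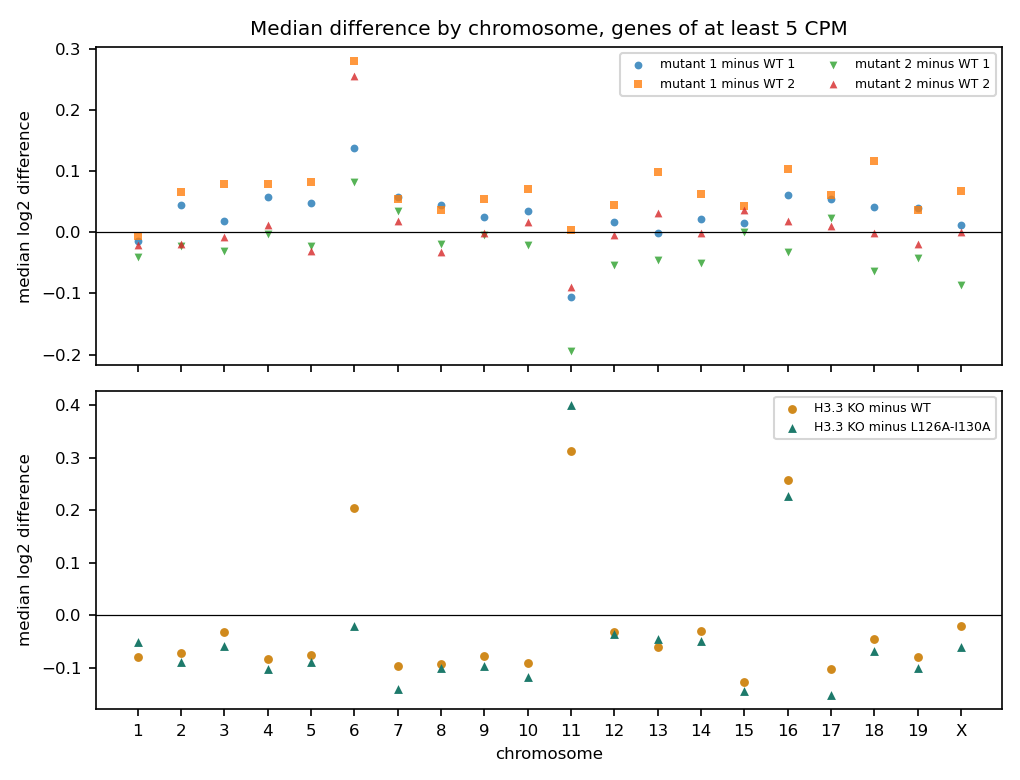
Median log2 difference by chromosome over genes of at least 5 CPM, above for each pairing of a mutant with a WT library and below for the mean of H3.3 KO minus that of each rescued line. Of the autosomes, chromosome 6 stands highest in all 4 mutant minus WT pairings (0.08 to 0.28) and chromosome 11 lowest in 3 of them (-0.19 to 0.00), and H3.3 KO stands above both rescued lines on chromosomes 11 and 16.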

How the data were processed

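Libraries of polyA RNA, 2 for each of 5 mESC lines, were grouped by the line in their labels. Reads were aligned to the murine genome with Bowtie and expression estimated with RSEM with default settings by the authors. The deposited values, although named TPM, are RSEM expected counts per gene, not normalized for depth or gene length. The submitters' processing notes name mm9; versions and annotation are not given in the sources used here.

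Expected counts were rounded. Genes of at least 1 CPM in at least 2 of 10 libraries were tested (13201 of 20325) in 1 fit of all libraries with edgeR 4.0.16 under R 4.3.3, with median-of-ratios factors (0.936 to 1.04), dispersions trended on abundance (0.0522 in common; 4.07 prior and 5 residual degrees of freedom) and Benjamini-Hochberg adjustment. The study used EBSeq, which was not run. CPM values use effective library sizes. The standard error is the log2 fold change divided by the square root of F. Intervals and floors cover counting error only. On simulated data of 12981 genes, 21 of 50 genes changed 2-fold, 92 of 100 changed 4-fold and 49 of 50 changed 8-fold were called, with 9 unchanged genes called. The changed genes were drawn from those with a mean of at least 5 CPM, so recovery of lower genes was not covered.

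The members and the 46 gene lists were chosen with earlier results of these data known. Named were the 12 largest rises and falls among DE genes without overlap between libraries, DE members of a list, H3.3 and chaperone genes, mESC markers, and up to 3 members a list with the largest changes at an unadjusted p under 0.05. Alternatives covered the scaling (TMM, library totals), DESeq2 1.42.0, limma 3.58.1 with a pseudocount of 1 or 0.1 CPM on the log2 scale, the filter, the libraries fitted, a replicate block and each library left out. Chromosomes were taken by symbol, or an older symbol, from GENCODE (13085 genes matched), and promoters from RefSeq (53 of 68 DE genes matched). Their CpG content was not compared between gene sets, since fewer than 80% of the tested genes matched. Python 3.11 steps used pandas and Biopython.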

Additional observations from a re-analysis of the deposited data

How the results depend on the processing

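The 68 DE genes kept their direction under all 14 alternatives in which they were tested (53 of them with a mean of at least 5 CPM). They were chosen on these same libraries, so their kept direction is no independent support. Counted over genes and alternatives, a DE gene stayed DE 590 times and no longer passed 347 times. The number of DE genes was 39 with library totals only, 323 with DESeq2, 125 without a filter on low values, 38 with a mean of at least 5 CPM and 22 with the 4 libraries compared alone, and the shift of these counts follows in part from the genes or samples fitted. TMM factors gave 65, limma on log2(CPM + 1) and on log2(CPM + 0.1) 96 and 93, a fit of the 6 H3.3 KO, WT and mutant libraries 93, and no fold threshold 70. Of the DE genes 33 of 68 were higher, against 23 of 39 with library totals, 56 of 93 with 6 libraries and 17 of 22 with 4. Leaving out 1 library gave between 0 and 64. With a lone library in a line, its spread is taken from the other lines.

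The same replicate numbers occur in each line, and nothing in the labels says that a number marks a shared batch. With the replicate block 234 genes were DE, 93 higher and 141 lower, and all 68 were among them. The deviations of replicate 1 from replicate 2 correlated at 0.423 across genes between the mutant and the WT line, and at -0.0442 to 0.574 over the 10 pairs of lines, over 0.1 in 7 of them. With 2 numbers a pairing cannot be settled.

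Values near 0 changed sign. The log2 fold change of H3f3a, 0.003, was -0.031 with library totals, -0.020 and -0.035 with limma on log2(CPM + 1) and log2(CPM + 0.1), -0.024 with a mean of at least 5 CPM and -0.0023 with the replicate block; leaving out 1 library gave -0.488 to 0.397. Leaving out 1 library also gave -0.046 to 0.130 for Esrrb, -0.072 to 0.109 for Klf4, -0.098 to 0.197 for Sall4 and -0.166 to 0.012 for Pou5f1. For H2-T22, without counts in the mutant libraries, fitted values of no fixed size ran from -8.65 to 0. The cause was not tested. Genes under a few CPM in the mutant are limited by depth.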
